A study of Danio rerio with 6 samples.

Results

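The 8 genes described here are known for roles in yolk, gut and liver, most of them in secreted proteins: apobb.1, apoa1a, apoa2, fabp2, fgb, fga, tfa and c5. They were taken by gene identifier, as 8 of the 27456 genes in the count table, and they had been picked for a high level in a single library, morphant replicate 1. Their level in that library is therefore a description and is not tested. RNA had been sequenced from cells sorted from tg(myl7::gfp) zebrafish embryos, which carry green fluorescent protein under the promoter of myl7, a heart myosin gene, at 24 hours post fertilization. The 3 Wildtype libraries and the 3 Gata4 morphant libraries all came from this line, each from pooled batches of about 200 embryos. Morphant embryos had been injected before the 4-cell stage with 2 nl of a 0.7 mM morpholino, an antisense oligomer, against the heart transcription factor gene gata4. The labels do not say whether wildtype embryos received a control oligomer or whether separate clutches were used for each library. The p-values therefore reflect the scatter of these samples alone, and that scatter may be technical. The labels name a TruSeq kit for wildtype replicate 3 and for morphant replicates 2 and 3, and the mRNA-Seq kit for the other 3 libraries.

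In fish embryos the yolk is wrapped by the yolk syncytial layer, a sheet of shared cytoplasm that breaks down stored yolk and exports its lipids as lipoproteins before the gut and liver take over. Apolipoproteins build those particles, with apolipoprotein B as the scaffold of large triglyceride-rich particles and apolipoproteins A-I and A-II as the main proteins of high-density ones. The liver later secretes the same apolipoproteins together with fibrinogen, transferrin and complement. Fabp2, the intestinal fatty acid binding protein, works inside the cell and is not a secreted protein, so the group is not made of secreted proteins alone.

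Library totals lay between 12574486 and 37906530 counts, with morphant replicate 1 the shallowest. MYL7, whose promoter drives the sorted reporter, was found in every library at 236 to 1000 CPM (the count scaled to a common library size, with TMM factors). The gata4 transcript itself was not analysed here, so the labels were not checked by it. Morphant replicate 1 stood apart from the other 5 libraries: 298 genes were at least 8-fold higher in it than in the highest other library, where the other libraries had 1 to 11 such genes each. The fits below are given with and without morphant replicate 1, and the folds also without wildtype replicate 2.

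The 4 lipid genes had the highest levels per length of the 8 in morphant replicate 1, as given further on. The apolipoprotein B gene apobb.1 (ENSDARG00000022767) stood at 0.393, 65.6 and 1.34 CPM in the wildtype libraries, replicates 1 to 3, and at 5630, 1.41 and 0.988 CPM in the morphant libraries. It thus had a very high value in morphant replicate 1, an intermediate one in wildtype replicate 2 and values near 1 CPM or below elsewhere, and the groups overlapped. Wildtype libraries averaged 22.4 ± 37.4 CPM (SD, n = 3) and morphant libraries 1880 ± 3250 CPM (SD, n = 3), so the SD exceeded the mean in both. By raw count it ranked 5 among all 27456 genes in morphant replicate 1 and 18877 in wildtype replicate 1.

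The apolipoprotein A-I gene apoa1a (ENSDARG00000012076) stood at 0.982, 18.1 and 2.68 CPM in the 3 wildtype libraries and at 1500, 2.75 and 0.832 CPM in the 3 morphant libraries. The apolipoprotein A-II gene apoa2 (ENSDARG00000015866) had 0.262, 6.53 and 1.41 CPM in wildtype and 586, 0.574 and 0.676 CPM in morphants, in the same order. Both genes had the same high library and the same second library as apobb.1. The fatty acid binding protein gene fabp2 (ENSDARG00000006427) had 0.196, 3.48 and 0.256 CPM in wildtype and 294, 0.545 and 0.780 CPM in morphants. For these 4 genes morphant replicate 1 was 82.9-fold (apoa1a) to 89.7-fold (apoa2) above wildtype replicate 2, a narrow range for genes whose levels in morphant replicate 1 spanned 294 to 5630 CPM. Against the highest of the remaining 4 libraries, the fold was 4000 for apobb.1, 545 for apoa1a, 417 for apoa2 and 377 for fabp2.

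The fibrinogen genes encode chains of the clot protein. The alpha chain gene fga (ENSDARG00000020741) had 0, 23 and 3 counts in wildtype replicates 1 to 3 and 2237, 6 and 3 counts in morphant replicates 1 to 3, or 139 CPM in morphant replicate 1 and at most 1.21 CPM elsewhere. A count of 0 in wildtype replicate 1 allows up to 3 counts. The beta chain gene fgb (ENSDARG00000008969) had 4, 19 and 7 counts in wildtype and 679, 27 and 23 counts in morphants. It was the only member other than tfa whose highest library after morphant replicate 1 was not wildtype replicate 2, with 1.2 CPM in morphant replicate 3 against 1.00 CPM in wildtype replicate 2.

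The order of the fibrinogen genes turned between libraries. In morphant replicate 1 there were 0.304 fgb counts per fga count, and 0.826 in wildtype replicate 2. In wildtype replicate 3 and morphant replicates 2 and 3 there were 2.33, 4.5 and 7.67 fgb counts per fga count, each resting on 3 to 6 fga counts. The pair lie close together, with 1 annotated gene between them in the RefSeq annotation of GRCz12tu, an assembly other than the one the files name. Without stated use of strand in counting, reads of overlapping genes cannot be assigned with certainty. Whether these genes overlap was not checked, and the source of the turned order was not tested.

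The transferrin gene tfa (ENSDARG00000016771), which encodes the iron carrier of plasma, differed from the other 7 in its level outside morphant replicate 1. The wildtype libraries held 88.7, 133 and 121 CPM, and the morphant libraries 773, 176 and 98.8 CPM, or 114 ± 22.7 and 349 ± 369 CPM (SD, n = 3 each). Morphant replicate 1 was 4.39-fold above the next library, morphant replicate 2, and 5.83-fold above wildtype replicate 2. Morphant replicates 2 and 3 lay on either side of wildtype replicates 2 and 3. Across the 5 libraries other than morphant replicate 1, tfa took 1355 to 6144 counts, while the other 7 genes together took 42 to 1842.

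The complement gene c5 (ENSDARG00000021004), a component of the terminal attack pathway, had 10, 21 and 1 counts in wildtype replicates 1 to 3 and 678, 10 and 16 counts in morphant replicates 1 to 3. That was 42.0 CPM in morphant replicate 1 and 0.0639 to 1.11 CPM in the other libraries. The fold over the highest other library, wildtype replicate 2, was 38, smaller than for the apolipoprotein genes, and it was 50.5 over the highest of the remaining 4.

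**Figure D1:**
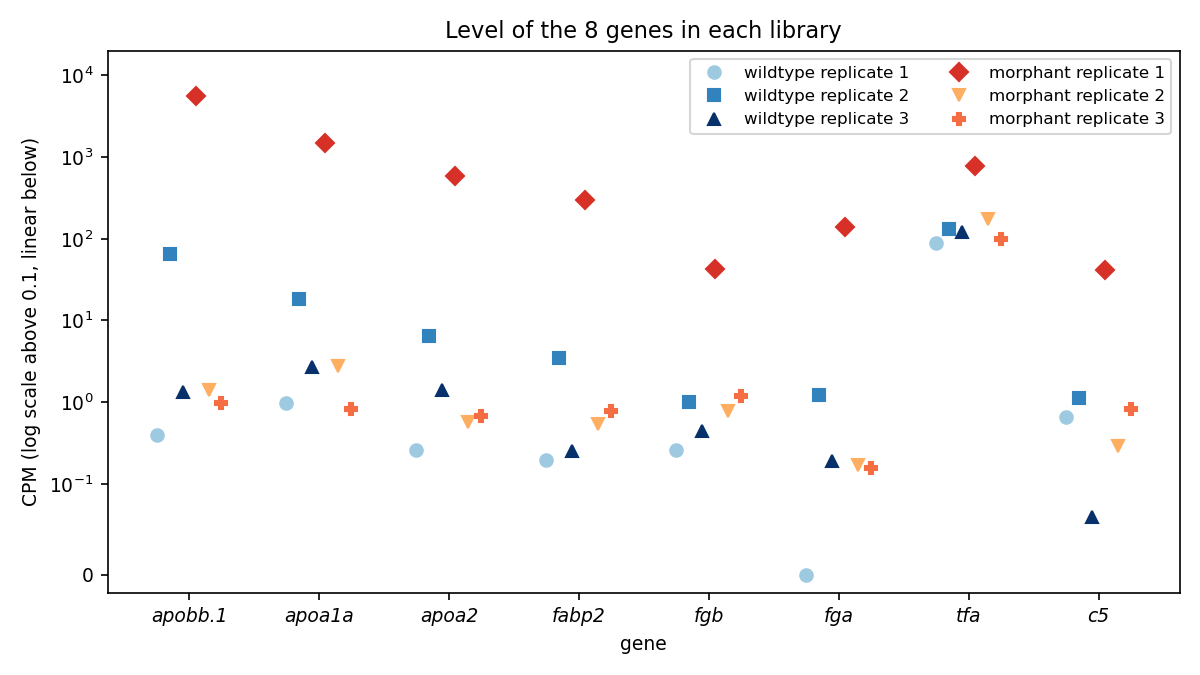
Level of each of the 8 genes (x axis) in each of the 6 libraries (points) as CPM, on an axis that is logarithmic above 0.1 and linear below. Morphant replicate 1 is the highest library for every gene, from 42.0 CPM for c5 to 5630 CPM for apobb.1, and wildtype replicate 2 is the next highest for 6 of the 8.

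Levels were compared between genes per length, with the authors' RPKM values (reads scaled by gene length and library size). In morphant replicate 1 apoa1a led with 1540 RPKM, followed by apoa2 with 279, apobb.1 with 247 and fabp2 with 182 RPKM. Then came tfa with 98.6, fga with 16.9, fgb with 6.87 and c5 with 5.07 RPKM. The order by count thus differed from the order per length, since apobb.1 gave the most counts. In wildtype replicate 1 the highest RPKM of the 8 was that of tfa, at 10.8, with apoa1a next at 1.02. These libraries give no spread for the order in morphant replicate 1, which is a single sample.

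Together the 8 genes took 1.16% of all counts in morphant replicate 1 (95% exact binomial interval 1.15% to 1.16%), where the 13 heart muscle genes checked took 0.286%. In the other 5 libraries the 8 genes took 0.00913% to 0.0206%. Without tfa, the remaining 7 genes took 0.00872% in wildtype replicate 2 (0.00833% to 0.00913%) and 0.000274% in wildtype replicate 1 (0.000198% to 0.000371%), although both are wildtype libraries made with the same kit. Wildtype replicate 3 and morphant replicates 2 and 3 had 0.000526%, 0.000599% and 0.000626%. The intervals cover counting error only, since reads without molecular identifiers are not independent molecules.

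The proportions among the 7 genes without tfa fell into the same split. In morphant replicate 1, apobb.1 made up 68.4% of their counts, apoa1a 18.2%, apoa2 7.12% and fabp2 3.57%. In wildtype replicate 2 the shares were 67.6% for apobb.1, 18.7% for apoa1a, 6.73% for apoa2 and 3.58% for fabp2. In the other 4 libraries apobb.1 made up 14.3% to 21.6%, and fgb 7% to 21.9% where it was 0.511% in morphant replicate 1. Wildtype replicate 1, with 42 counts in all for the 7 genes, is the least certain of these.

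**Figure D2:**
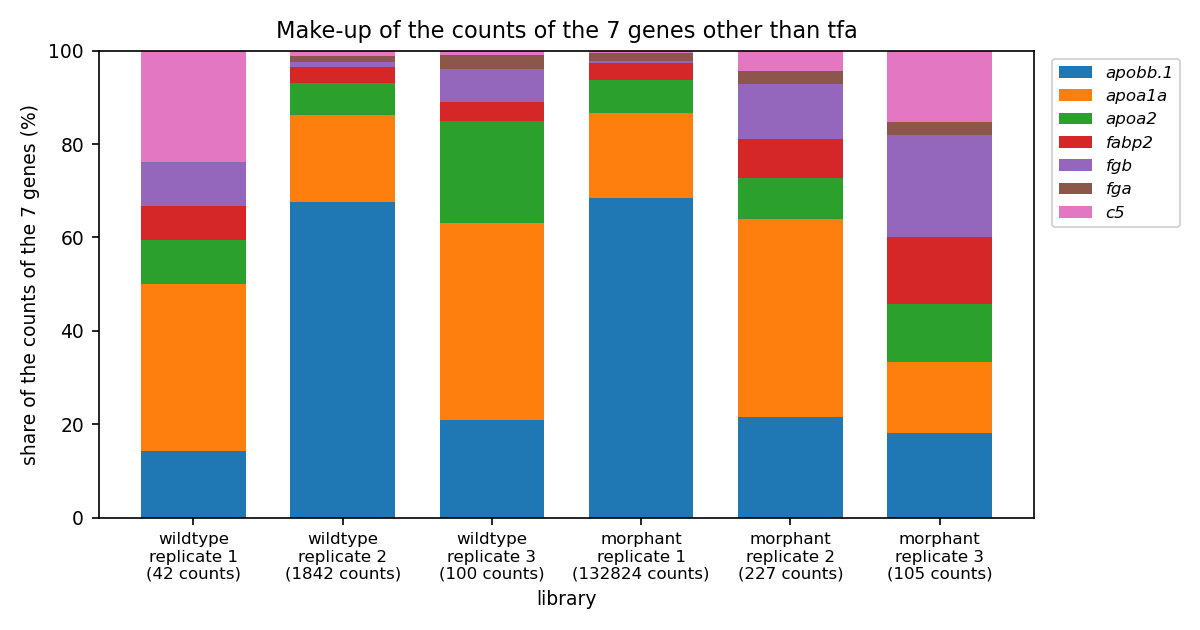
Share of the summed counts of the 7 genes other than tfa (y axis, percent) that each gene took in each library (x axis, with the summed count). The bars of morphant replicate 1 and wildtype replicate 2 are alike, with apobb.1 at 68.4% and 67.6%, and those of the other 4 libraries hold less apobb.1.

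Set against the count in morphant replicate 1, the count in wildtype replicate 2 was near the same percentage for 5 of the genes. It was 1.37% for apobb.1 (95% exact interval 1.30% to 1.45%), 1.42% for apoa1a (1.27% to 1.58%) and 1.31% for apoa2 (1.09% to 1.56%). It was 1.39% for fabp2 (1.07% to 1.77%) and 1.03% for fga (0.650% to 1.55%). These 5 intervals overlap one another. For fgb and c5 the value was higher, at 2.80% (1.67% to 4.40%) and 3.10% (1.90% to 4.77%), and for tfa it was 20.2%. For fgb, morphant replicates 2 and 3 held more than wildtype replicate 2, at 3.98% and 3.39%, and for tfa morphant replicate 2 did, at 49.2%.

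No other library showed a percentage common to apobb.1, apoa1a, apoa2, fabp2 and fga. In each, the interval of apobb.1 lay below that of apoa1a. In morphant replicate 2 the values were 0.0540% for apobb.1 (0.0399% to 0.0714%) and 0.396% for apoa1a (0.321% to 0.484%). Without apobb.1, the intervals of apoa1a, apoa2, fabp2 and fga overlapped in wildtype replicates 1 and 3 and in morphant replicate 2. Those of fga were wide there, resting on at most 6 counts. In morphant replicate 3 the interval of apoa1a (0.0377% to 0.107%) lay below that of fabp2 (0.177% to 0.522%). Wildtype replicate 2 held 168% of the total count of morphant replicate 1.

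**Figure D3:**
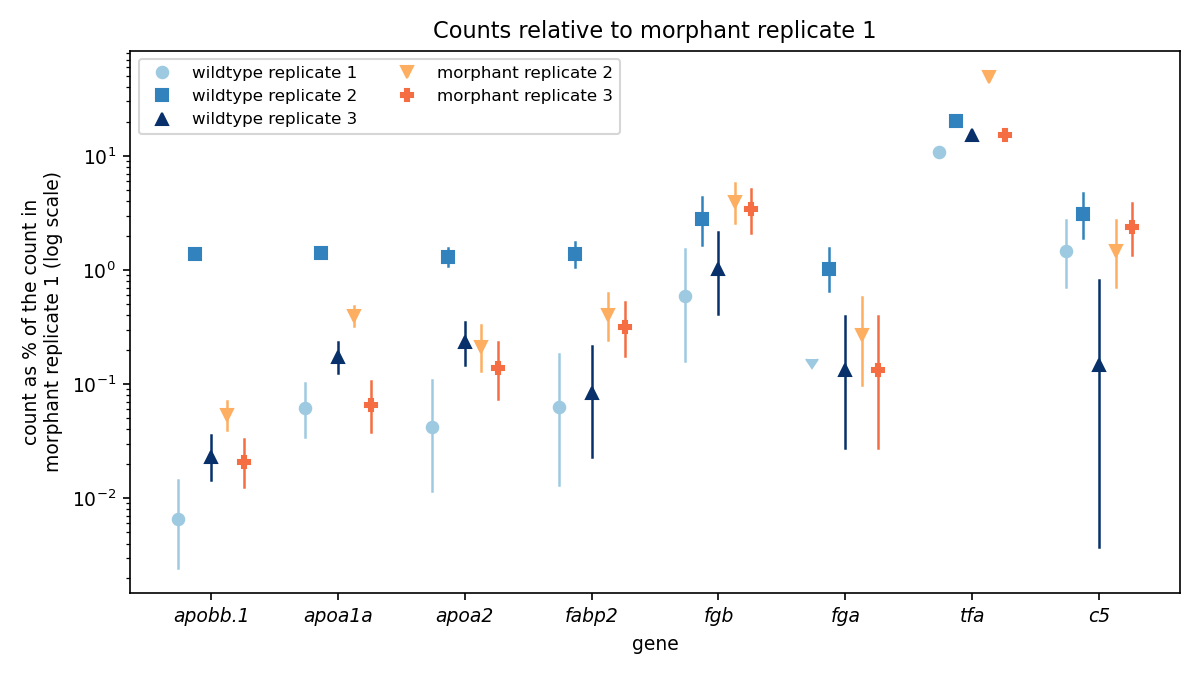
Count of each gene (x axis) in each of the 5 other libraries as a percentage of its count in morphant replicate 1 (y axis, log scale), with 95% exact binomial intervals; the downward mark is the upper bound for a count of 0. The squares of wildtype replicate 2 lie between 1.03% and 1.42% for apobb.1, apoa1a, apoa2, fabp2 and fga, while the other libraries differ more between genes.

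The same percentage was then read for other genes, by a rule set after the values of the 8 had been seen. The rule took genes with at least 500 counts in morphant replicate 1 and a level there at least 64-fold above the highest of the other libraries, leaving out of that maximum the library to be read. For wildtype replicate 2 it gave 38 genes, 5 of them members (apobb.1, apoa1a, apoa2, fabp2 and fga). Their count in wildtype replicate 2 had a median of 1.68% of that in morphant replicate 1, with quartiles of 1.38% and 2.01% and a range of 0.739% to 12.9%, and none was at 0. The 33 genes that are not members had a median of 1.79%. Read in the same way, the medians were 0.00882% in wildtype replicate 1 (25 genes, 11 at 0), 0.144% in wildtype replicate 3, 0.307% in morphant replicate 2 and 0.138% in morphant replicate 3. The labels do not say whether wildtype replicate 2 and morphant replicate 1 shared a sequencing lane, a sort day or a clutch. The values of these genes in wildtype replicate 2 therefore cannot be taken as its own expression with certainty, and the source of its counts was not tested.

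**Figure D4:**
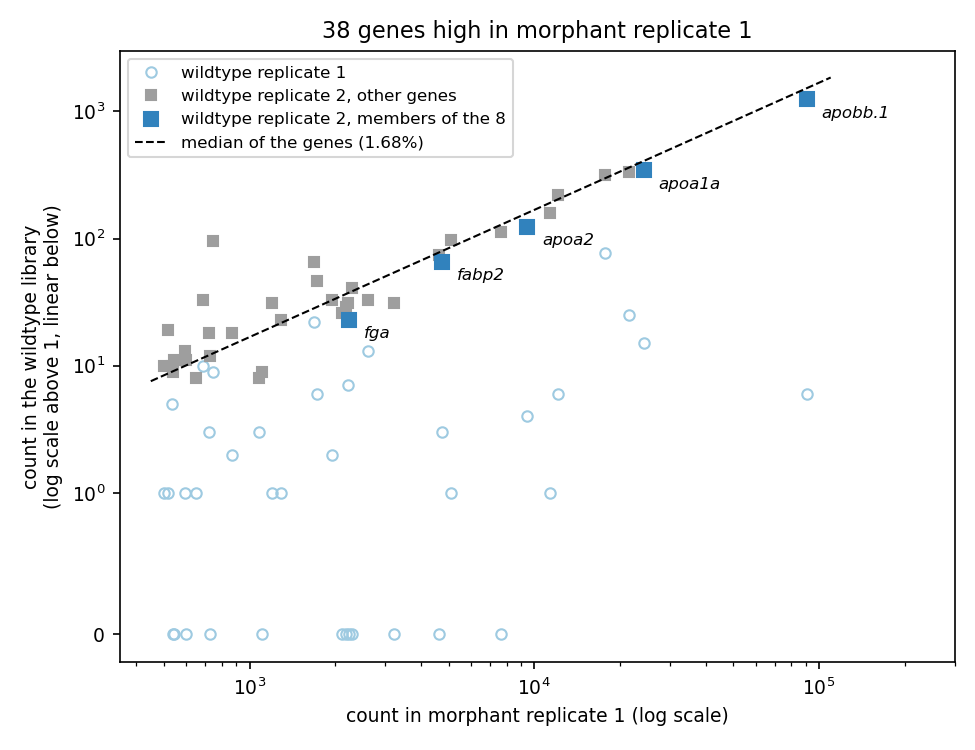
Count in wildtype replicate 2 (squares) and wildtype replicate 1 (open circles) against the count in morphant replicate 1 (x axis, log scale) for the 38 genes of the rule; the y axis is logarithmic above 1 and linear below. The squares follow the dashed line at the median of 1.68%, and the circles of the same genes lie below it, with most at 0 to 10 counts. The rule held the level in wildtype replicate 1 at least 64-fold below that in morphant replicate 1. The low place of the circles was thus fixed by the choice of genes, while wildtype replicate 2 was not held by the rule.

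The comparison of morphant with wildtype cells asks which transcripts differ after knockdown of Gata4. Since the 8 genes were picked on morphant replicate 1, the test that the choice did not use is the one without it, of 3 wildtype libraries against morphant replicates 2 and 3 with a term for kit. In edgeR's quasi-likelihood test, 0 of 18518 genes passed an adjusted p of 0.05 (0%), with 464 genes at an unadjusted p under 0.05, and DESeq2 called 3 genes. Of the 8 members, 7 passed the filter on low counts and 0 passed the test; fga, with 3 to 6 counts in the TruSeq libraries, did not pass the filter. As both kits enter, the estimate rests on wildtype replicate 3 against morphant replicates 2 and 3, which share the TruSeq kit. In bulk RNA, fewer cells of a type and less RNA per cell cannot be told apart.

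The direction differed between members in that test. Log2 fold changes, as morphant minus wildtype, were -0.20 (SE 1.92) for apobb.1, -0.60 (SE 1.43) for apoa1a and -1.22 (SE 1.44) for apoa2. They were 1.28 (SE 1.63) for fabp2, 1.06 (SE 1.12) for fgb, 0.15 (SE 0.62) for tfa and 2.91 (SE 1.46) for c5, the member with the smallest unadjusted edgeR p, 0.0813. The edgeR adjusted p was 1 for all 7 genes. The c5 value rests on a single count in wildtype replicate 3 against 10 and 16 counts. Standard errors were above 1 on the log2 scale for 6 of the 7 genes. Apart from those of c5 and tfa, these leave room for changes of several fold in either direction. The smallest standard error was that of tfa, 0.62. The scatter of each gene's own counts behind these standard errors comes from wildtype replicate 1 against 2 and from morphant replicate 2 against 3. The edgeR fit also draws the scatter of each gene towards that of other genes. For apobb.1 the wildtype pair stood at 0.393 and 65.6 CPM.

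Over all 6 libraries the fitted log2 fold changes were 4.06 (SE 2.58) for apobb.1, 3.57 (SE 2.41) for apoa1a, 3.65 (SE 2.59) for apoa2 and 5.99 (SE 1.63) for fabp2. They were 4.04 (SE 1.21) for fgb, 1.50 (SE 0.61) for tfa and 5.14 (SE 0.77) for c5. These include the library that chose the genes, so no test is read from them. In that fit 0 of 18033 genes passed an edgeR adjusted p of 0.05 (0%), with 2261 at an unadjusted p under 0.05, while DESeq2 called 293. The apobb.1, apoa1a and apoa2 values turned negative without morphant replicate 1, as given above. Without wildtype replicate 2, they were 2.3, 1.63 and 1.33, while fabp2, fgb, tfa and c5 were at 6.25, 3.46, 1.28 and 5.21. In the test without morphant replicate 1, leaving out wildtype replicate 2 as well gave -0.20 for apobb.1, -0.60 for apoa1a and -1.22 for apoa2, and fabp2 then failed the filter. That estimate rests on the TruSeq libraries, so the design held these values in place. They are no check on the part of wildtype replicate 2.

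The authors' deposited table, in contrast, lists all 8 genes as changed. In the authors' deposited table apobb.1 had the smallest p of all genes, with an adjusted p of 1e-41 and a fold of 75.7 towards morphants, and apoa1a was next with 1.34e-41 and 62.6-fold. The fold there was 64.9 for apoa2, 68.2 for fabp2, 89.6 for fga, 23.5 for fgb, 21.7 for c5 and 2.85 for tfa (adjusted p = 0.0105 in the authors' deposited table). That table calls 703 of 27456 genes at an adjusted p under 0.05 (2.56%). Morphant replicate 1 enters those means, so they describe the same library as the values above.

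Many other genes of lipid transport were also high in morphant replicate 1. Unless said otherwise, the genes named from each list had its highest mean levels over all libraries. That mean includes morphant replicate 1, so genes high in it alone, such as APOB, apoa4b.1, fetub and c9, could be named through it. Of the 26 measured genes of that list that are not members, 12 were at least 8-fold higher there than in any other library, against 1.09% of all genes (298 of 27456). The second apolipoprotein B gene of the name table, APOB (ENSDARG00000042780), had 702 CPM in morphant replicate 1, 8.37 CPM in wildtype replicate 2 and at most 0.192 CPM elsewhere. The apolipoprotein A-IV gene apoa4b.1 had 199 CPM there, 1.63 CPM in wildtype replicate 2 and at most 0.143 CPM elsewhere. Reads of apobb.1, apobb.2 and APOB may be shared between close copies, and how the authors counted those is not stated.

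Other genes of the list were present in every library. The apolipoprotein E gene apoeb had 1480 CPM in morphant replicate 1 and 232 CPM in morphant replicate 3, against 37.2 to 59.7 CPM in the other 4 libraries, and apoc1, which encodes apolipoprotein C-I, had 508 and 45.2 CPM against 6.13 to 14.7 CPM. FABP3 (ENSDARG00000023290), the heart-type fatty acid binding protein gene, stood at 199 and 189 CPM in those morphant libraries and at 81.6 to 110 CPM in the others. The lipoprotein lipase gene LPL, with 99.0 CPM in morphant replicate 1, lay within the range of the other libraries, 72.9 to 225 CPM. In the test without morphant replicate 1, the log2 fold change was 1.7 (SE 0.99) for apoeb and 2.03 (SE 1.06) for apoc1, each with an edgeR adjusted p of 1. In the annotation of GRCz12tu, apoa2 lies next to apoc2, with no annotated gene between them, and apoc1, apoeb and the apoa4b genes follow within 8 genes of apoa2. MTTP, which loads lipid onto apolipoprotein B in the cell, had 32.7 CPM in morphant replicate 1 and 0.364 to 1.00 CPM elsewhere; it was chosen after its values were seen.

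Of the 29 coagulation and inhibitor genes that are not members, 18 were at least 8-fold higher in morphant replicate 1. The third fibrinogen chain gene, FGG, chosen after its values were seen, had 647 counts there, 8 in wildtype replicate 2 and 1 to 10 in the others. The fetuin gene fetub had 748 CPM in morphant replicate 1, 11.6 CPM in wildtype replicate 2 and at most 0.959 CPM elsewhere. SERPINC1, which encodes antithrombin, had 60.4 CPM against 1.51 to 6.53 CPM, and ITIH2, an inhibitor heavy chain gene, had 45.2 CPM against 1.40 to 26.0 CPM. Not all clotting genes were high. The coagulation factor V gene f5 had 51.9 CPM in morphant replicate 1, its lowest library, against 171 to 480 CPM. The protein S gene pros1 and serpina10a had 25.0 and 19.2 CPM there, against 22.1 to 34.5 and 23.8 to 34.0 CPM elsewhere.

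Of the 24 complement genes that are not members, 10 were at least 8-fold higher in morphant replicate 1. The complement C3 gene c3a.1 had 161 CPM there against 1.86 to 3.21 CPM, and the terminal pathway gene c9 had 54.0 CPM against 0 to 0.948 CPM. In contrast c4, c7b and MASP1 had 21.1, 8.12 and 8.18 CPM, inside or below the range of the other libraries, and cfd had 10.8 CPM against 2.26 to 30.0 CPM. For iron and metal transport, 0 of the 10 genes other than tfa were at least 8-fold higher. The ferritin genes fth1a and fthl27 had 629 and 240 CPM in morphant replicate 1 against 504 to 1300 and 589 to 1920 CPM. The iron exporter gene SLC40A1 had 79.5 CPM against 40.3 to 62.3 CPM, and CP, which encodes the copper protein ceruloplasmin, had 3.84 CPM against 0.527 to 1.41 CPM. The importer gene slc11a2 had 20.4 CPM against 20.6 to 36.9 CPM, and HEPH had 0.372 CPM against 0.156 to 1.64 CPM.

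**Figure D5:**
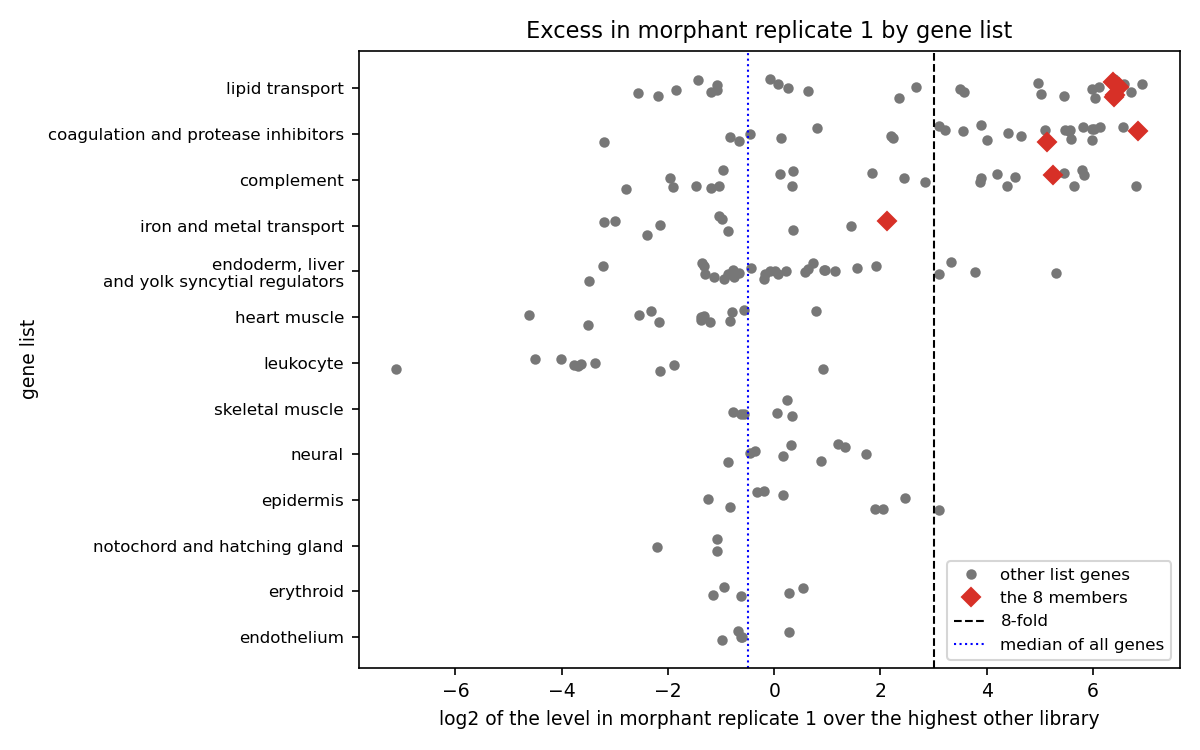
Log2 ratio of the level in morphant replicate 1 to the highest of the other 5 libraries (x axis) for the genes measured in each list (y axis). Genes with 0 counts in morphant replicate 1 have no finite ratio and are not drawn. Diamonds are the 8 genes. The dashed line marks 8-fold and the dotted line the median of all genes with a finite ratio, -0.49. Lipid, coagulation and complement genes spread to the right of the dashed line, and heart and leukocyte genes lie mostly to the left of 0.

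Of the regulators of endoderm, liver and the yolk syncytial layer, 4 of 31 were at least 8-fold higher in morphant replicate 1. The liver and gut nuclear receptor gene HNF4A had 6.38 CPM there against 0.131 to 0.468 CPM, and creb3l3a, a membrane-bound factor that acts on apolipoprotein genes in mouse liver, had 20.9 CPM against 0.0520 to 0.527 CPM. NR1H4 and vtg7 passed with 4 and 17 counts, and these 4 genes were chosen after their values were seen. The abundant regulators of the list did not follow: foxa3 stood at 14.2 CPM in morphant replicate 1 and 14.1 CPM in morphant replicate 3, against 4.00 to 5.04 CPM, and GATA5 and PROX1 had 27.7 and 16.2 CPM, within the range of the other libraries. CEBPA and CEBPB had 69.6 and 168 CPM in morphant replicate 1, their lowest library, against 291 to 782 and 260 to 1580 CPM, and the protease gene ctsla had 636 CPM against 637 to 858 CPM. Of the same lists, the liver fatty acid binding protein gene fabp10a had 0 counts in morphant replicate 1 and 0 to 2 elsewhere. The gene mxtx2, which acts early in forming the yolk syncytial layer, had 0 counts there and 0 to 7 elsewhere. This pair was also chosen after the values were seen, and counts this low in all libraries give no direction. With that pair set aside, the genes of these lists still did not move as a block in morphant replicate 1. The abundant regulators were named by their mean level over all libraries, and which cells gave their RNA was not tested. Summed leukocyte markers, like CEBPA and CEBPB, were lowest in morphant replicate 1, at 822 CPM against 2070 to 8230 CPM. The tissue that gave the RNA of the 8 genes was not tested.

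In the test without morphant replicate 1, 0 genes of these 5 lists passed an edgeR adjusted p of 0.05 in either direction, which is also the share over all genes. The median log2 fold change was 0.32 for the 15 lipid transport genes tested (10 of them positive) and 0.26 for the 12 coagulation genes (7 positive), against 0.04 over all genes. It was -0.49 for the 12 complement genes (2 positive), -0.46 for the 8 iron and metal genes (3 positive) and 0.74 for the 18 regulators (13 positive). With all 6 libraries, including the one that chose the 8 genes, the medians were 2.15 for lipid transport, 1.84 for coagulation, -0.43 for complement, -0.24 for iron and metal transport and 0.59 for the regulators, against 0.07 over all genes. Leaving out the members, they were 0.88 for lipid transport and 1.65 for coagulation. The lipid and coagulation medians were 1.11 and 1.1 without wildtype replicate 2, and 5.8 and 4.17 without wildtype replicate 3. Without the low-count filter, the medians over all libraries were 3.56 for lipid transport, 3.45 for coagulation and 2.16 for complement. They were -0.6 for iron and metal transport and 1.06 for the regulators. The sign for complement thus depended on the filter, which left out genes high in morphant replicate 1 such as c9.

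Over the 6 libraries, log2(CPM + 1) of each member followed the mean of the other 7 with a Pearson r of 0.947 (tfa) to 0.997 (fabp2). This describes 6 points of which morphant replicate 1 sets most of the spread. By the same measure, 8 genes were taken as most like the mean of the members, out of 65 tested genes with a symbol and a level at least 8-fold higher in morphant replicate 1. They were BHMT, afp4 (ENSDARG00000041490), fbp1b, SLC13A4, pvalb9, si:ch211-232i5.3, fetub and PC, with r of 0.991 to 0.997. BHMT, the betaine-homocysteine methyltransferase gene, had 1100 CPM in morphant replicate 1, 16.7 CPM in wildtype replicate 2 and 5.04 to 6.71 CPM in the others. The choice of these genes by likeness fixes the pattern they share with the members.

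For some other cells, the summed markers in morphant replicate 1 lay outside the range of the other libraries. These were the epidermal, neural and leukocyte sums and, narrowly, the heart sum, while the other sums checked lay within it. Summed epidermal markers reached 13500 CPM there against 3380 to 6060 CPM, and 5 of 9 had their highest value there. Most of that sum came from krt4, with 8390 CPM against 671 to 2260 CPM elsewhere. Of the other keratin genes, krt5 had 2690 CPM against 66.8 to 312 CPM. In contrast, krt8 had 1280 CPM, its lowest value, against 2280 to 3020 CPM. These keratin genes were chosen after their values were seen. Summed neural and skeletal muscle markers were 936 and 974 CPM against 228 to 690 and 161 to 1470 CPM, with 6 of 9 and 3 of 6 genes highest in morphant replicate 1. Summed leukocyte markers were 822 CPM against 2070 to 8230 CPM, with 1 of 10 highest there, and heart markers 2230 CPM against 2390 to 7500 CPM, with 1 of 13. That leukocyte gene, an entry of MPEG1 (ENSDARG00000078569) named after its values were seen, had 2 counts in morphant replicate 1 and 0 to 1 elsewhere. Of all genes, 27.2% had their highest value in morphant replicate 1. For this share, as for the marker counts, 3 counts stood for the other libraries where all were at 0. Genes seen in morphant replicate 1 alone at a few counts are therefore left out of it. Summed notochord and hatching gland markers were 261 CPM against 108 to 601 CPM, erythroid markers 590 CPM against 303 to 1060 CPM and endothelial markers 189 CPM against 106 to 297 CPM. In wildtype replicate 2, the sum of endothelial markers (297 CPM) was the highest of the 6 libraries, and all 5 of those genes were higher there than in the other libraries, morphant replicate 1 left out. What part cell make-up had in the levels of the 8 genes was not tested.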

How the data were processed

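All values come from the table of the whole series, whose column names carry the library titles. Its raw counts per Ensembl gene and its RPKM were made by the authors, per the file headers; the deposited RPKM are above 0 even at a count of 0. The authors also deposited p-values, raw and adjusted, and a fold (a ratio of wildtype to morphant), which are quoted as theirs. Columns of other units that the authors deposited, a base mean (signal) and mean counts whose headers are swapped, gave none of the values here. The deposited fold is the ratio of those base means. CASAVA 1.7.0, BWA, DESeq and build Zv9 are named in the submitters' processing notes, while the counting tool, and whether it used strand, is not given in the sources used here. Symbols from a name table matched 19189 of 27456 identifiers and all 8 members.

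Replicate numbers follow the order of accessions and say nothing of pairing. The main test was that of edgeR 4.0.16, run in R 4.3.3 (TMM, filterByExpr, terms for kit and group, quasi-likelihood F test, Benjamini-Hochberg over all genes), with DESeq2 1.42.0 and limma 3.58.1 as alternatives. Residual degrees of freedom were 3 with all libraries and 2 without morphant replicate 1. CPM use TMM-scaled totals. Where all other libraries had 0 counts, 3 counts stood for them in a fold.

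The members and gene lists were chosen with earlier results of these data known. Named genes outside the 8 were the 6 of each of 5 lists with the highest mean CPM over the 6 libraries, and the 8 genes most alike. Morphant replicate 1 enters that mean, so a gene high in it alone could be named through that value. Others are said to be chosen after their values were seen.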

Additional observations from a re-analysis of the deposited data

Results flagged for a closer look

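For apoa2 and fga, the morphant libraries lay on opposite sides of the wildtype libraries of their own kit. With the mRNA-Seq kit, morphant replicate 1 lay above both wildtype libraries, which the choice of the genes on that library fixed. With the TruSeq kit, morphant replicates 2 and 3 had 0.574 and 0.676 CPM of apoa2 against 1.41 CPM in wildtype replicate 3. These rest on 20, 13 and 22 counts. The log2 fold change of apoa2 without morphant replicate 1 was -1.22 (SE 1.44), so no direction is read for it. For fga the same libraries had 0.172 and 0.156 against 0.192 CPM, which rests on 6, 3 and 3 counts and gives no direction at this depth. The difference between kits was not tested.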

How the results depend on the processing

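No paired analysis was possible because the labels give no replicate numbers that groups share. The count of genes called over all libraries was 0, and 44 without the low-count filter, 293 in DESeq2 (fabp2, fgb and c5 among them), 1 within the TruSeq libraries and 4352 within the mRNA-Seq libraries, which hold a single morphant library, the one that chose the members, and where all 8 members passed; leaving out 1 library gave 0 to 3745, the latter without morphant replicate 2. Without morphant replicate 1 the count was 0, and 28 without the filter and 3 in DESeq2. Leaving out a further library gave 0 to 1972 (without morphant replicate 2), and 89 without morphant replicate 3. That fit could not be made without wildtype replicate 3, as kit and group then coincide. Of the members' log2 fold changes over all libraries, those of apobb.1, apoa1a and apoa2 reversed within TruSeq (-0.22, -0.61 and -1.24). They also reversed without morphant replicate 1 (-0.20, -0.60 and -1.22). Both estimates rest on wildtype replicate 3 against morphant replicates 2 and 3, so they are not separate checks. The leave-one-out values of these genes reached 7.37, 7.25 and 7.37, the highest without wildtype replicate 3. In the test without morphant replicate 1, apobb.1 reversed when scaled by library totals alone (0.14) and without morphant replicate 3 (0.05), as did apoa1a (0.02); without morphant replicate 2 these were -0.52 and -1.76. With no kit term, apobb.1, apoa1a and apoa2 moved to -4.27, -2.04 and -2.20, and fabp2 and c5 reversed (-1.07 and -0.24), and tfa without morphant replicate 2 (-0.37), against 0.53 without morphant replicate 3. The cause was not tested. None of the 7 members tested passed an adjusted p of 0.05 under any alternative of that test. Scaling by totals alone moved the median over all genes (log2 fold change) to 0.46 over all libraries and 0.42 without morphant replicate 1, against 0.07 and 0.04. Most counts of members other than tfa outside morphant replicate 1 were low, which limits the precision of every fold between them.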
